A study of Rattus norvegicus with 16 samples.

Results

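The respiratory chain genes of the stomach and the middle part of the intestine were followed in suckling Wistar rats (Wistar Han in the methods) given saline (C) or obestatin (OH) by the enteral route. They were chosen by symbol, as the genes named Nduf, Sdha to Sdhd, Uqcr, Cox4 to Cox8 or Atp5 among 26115 gene names on the array, and 93 genes matched. Of these, 78 encode subunits of the 5 complexes, namely 37 of complex I, 4 of complex II, 8 of complex III, 14 of complex IV and 15 of complex V. The other 15 are 5 copies of subunit genes (Atp5hl1, Cox6c-ps1, Ndufa10l1, Ndufa7l and Ndufb4l1), 7 assembly factors of complex I (Ndufaf) and 3 proteins with a subunit-like name (Atp5s, Atp5sl and Cox7a2l). Each gene was read from its brightest probe, and 92 genes passed the filter on dim probes, Cox8c being well above background on 0 of 16 arrays.

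Obestatin is a peptide cut from the same precursor as ghrelin. Between day 14 and day 21 after birth the OH rats received 250 nmol/kg at each of 2 daily doses, and the C rats received saline on the same schedule. Total RNA of one organ of one rat was hybridised in Cy5 to each of 16 two-colour arrays against a reference in Cy3 pooled from all rats, giving 4 arrays for each organ of the C rats and 4 for each organ of the OH rats. RNA came from whole tissue, so fewer cells of a type and less RNA per cell cannot be told apart.

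The respiratory chain carries electrons from NADH (complex I) and succinate (complex II) through ubiquinone, complex III and cytochrome c to oxygen at complex IV, and complex V, the ATP synthase, uses the proton gradient built on the way. Nearly all of its subunits are encoded in the nucleus, and a small set in the mitochondrial genome. In the stomach, the acid-secreting parietal cell is known for its density of mitochondria.

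The starts of the subunit genes are shown first, because subunit promoters are known for the motifs of a few shared regulators. RefSeq promoters of assembly GRCr8, from 250 bases before to 50 bases after the start, were found for 69 subunits. Letters searched on both strands were GCATGCGC for NRF1, CCGGAAG for GABPA, AAGATGGCG for YY1 and TCAAGGTCA for the ERR receptors. Of the 69 promoters, 32 (46.4%) held at least 1 of these, against 13.2% of all 27457 promoters. By motif, the share was 13.0% against 2.66% for NRF1, 29.0% against 9.22% for GABPA, 14.5% against 1.93% for YY1 and 2.9% against 0.412% for ERR. At least 2 of them were held by 8 promoters, those of Atp5i, Atp5j, Atp5l, Ndufa2, Ndufa6, Sdhb, Sdhd and Uqcrc1, the ERR letters of Sdhd lying outside the stretch printed here. Ndufa1 and Ndufs8 are given as the subunits with large tissue differences, Sdhd and Uqcrc1 as promoters with several matches, and Cox8b and Cox6a2 as the muscle isoforms, each from 120 bases before to 30 after the start, with matches in capitals.
Ndufa1, chrX:121293526-121293675, minus strand: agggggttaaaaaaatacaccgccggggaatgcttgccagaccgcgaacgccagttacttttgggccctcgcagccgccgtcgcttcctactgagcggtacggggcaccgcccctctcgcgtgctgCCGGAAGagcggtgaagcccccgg
Ndufs8, chr1:210573669-210573818, minus strand: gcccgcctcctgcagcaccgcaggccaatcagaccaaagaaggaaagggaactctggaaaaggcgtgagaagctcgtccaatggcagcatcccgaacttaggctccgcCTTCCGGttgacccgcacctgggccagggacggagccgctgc
Sdhd, chr8:59850612-59850761, minus strand: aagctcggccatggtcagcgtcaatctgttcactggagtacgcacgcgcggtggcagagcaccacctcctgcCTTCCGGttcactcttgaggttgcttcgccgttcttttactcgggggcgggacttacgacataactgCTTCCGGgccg
Uqcrc1, chr8:118468103-118468252, plus strand: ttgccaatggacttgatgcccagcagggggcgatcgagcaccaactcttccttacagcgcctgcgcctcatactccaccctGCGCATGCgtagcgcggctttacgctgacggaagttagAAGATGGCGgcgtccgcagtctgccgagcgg
Cox8b, chr1:205408244-205408393, minus strand: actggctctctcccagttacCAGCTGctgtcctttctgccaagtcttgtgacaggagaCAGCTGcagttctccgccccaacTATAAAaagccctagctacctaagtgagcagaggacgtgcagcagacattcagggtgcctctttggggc
Cox6a2, chr1:192219687-192219836, minus strand: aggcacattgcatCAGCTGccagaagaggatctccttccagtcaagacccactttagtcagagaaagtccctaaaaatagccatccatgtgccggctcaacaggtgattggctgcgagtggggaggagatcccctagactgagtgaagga
The capitals mark GABPA letters in Ndufa1 (given strand), Ndufs8 and Sdhd (opposite strand, 2 matches in Sdhd), and NRF1 followed by YY1 letters in Uqcrc1. In Cox8b they mark a TATA box (TATAAA, given strand only) and 2 palindromic E boxes (CAGCTG), and in Cox6a2 1 E box. These last 2 motifs were picked after the sequences had been read, and they are held by 5.8% and 15.9% of subunit promoters, against 9.08% and 15.1% of all promoters. No printed match overlaps another, and a match is a description of letters, not a binding site.

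Several features of the whole data set touch what follows. Each group filled 1 slide of its own, both OH slides were scanned on one day and both C slides on another, and the median raw Cy3 intensity was 188 to 195 on the C slides and 341 to 399 on the OH slides. Treatment therefore cannot be told apart from slide and scan day, and neither can tissue from slide within a treatment. Between 69.4% and 77.6% of spots were well above background, no spot was saturated, and arrays of a group correlated at 0.707 to 0.943. Parietal and enterocyte markers followed the organ labels. All 9 parietal cell genes were higher in stomach and 10 of 12 enterocyte genes (83.3%) higher in middle intestine in both treatments. In C rats 1 enterocyte gene was higher in stomach. Of 11 pancreas acinar cell genes, 9 (81.8%) were higher in stomach in C rats and 8 (72.7%) in OH rats. Of all probes, 22.7% were higher and 22.3% lower in stomach in C rats, and 19.2% and 19.1% in OH rats. A part of pancreas tissue in the stomach samples was not tested. C stomach replicate 2 stood apart from the other C stomach arrays in striated muscle genes. The count of members higher in stomach, Cox8b and Cox6a2 are given with and without it. Calls of other single genes in C rats are given with it. Without it, Cox8a, Cox6c, Ndufb4l1 and Ndufa7l were among the genes that no longer passed.

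The first question was whether respiratory chain transcripts differ between the organs. In C rats, 32 of the 92 genes (34.8%) were higher in stomach than in middle intestine at an adjusted limma p under 0.05, where 22.7% of all 21174 probes were, and 5 were lower, where 22.3% of all probes were. In OH rats, 31 (33.7%) were higher, against 19.2% of all probes, and 0 were lower, against 19.1%. At an unadjusted p under 0.05, 46 of the 92 genes passed in C rats and 42 in OH rats, in either direction, where 52.3% and 46.7% of all probes did. The larger share of members than of all probes therefore concerned the genes higher in stomach, and in C rats it was lost without C stomach replicate 2, when 18 members (19.6%) were higher against 20.4% of all probes. With the replicate number as a block within each treatment it was 23.9% of members against 22.2% of all probes in C rats and 23.9% against 18.9% in OH rats. The C and OH comparisons share no array, and 27 genes were higher in both, which is 84.4% of the C list and 87.1% of the OH list. Of all probes called higher, 68.5% of the C list and 80.9% of the OH list were shared. Arrays of the 2 organs did not overlap for 14 genes higher and 4 lower in stomach in C rats, where 21.6% of all probes lay higher and 22.1% lower without overlap, and for 30 higher and 0 lower in OH rats, where 17.6% and 17.7% of all probes did so. These were smaller shares of the members than of all probes in C rats in both directions, and in OH rats a larger share of the members than of all probes higher in stomach. The median log2 difference over the 92 genes was 0.25 in C rats and 0.32 in OH rats, while the median over all probes was -0.0073 and 0.0091. The genes that were higher began at 1.26-fold in both treatments, and all but 2 in each lay under 2-fold, the exceptions being Atp5s and Cox8b in C rats and Atp5s and Ndufs8 in OH rats.

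**Figure D1:**
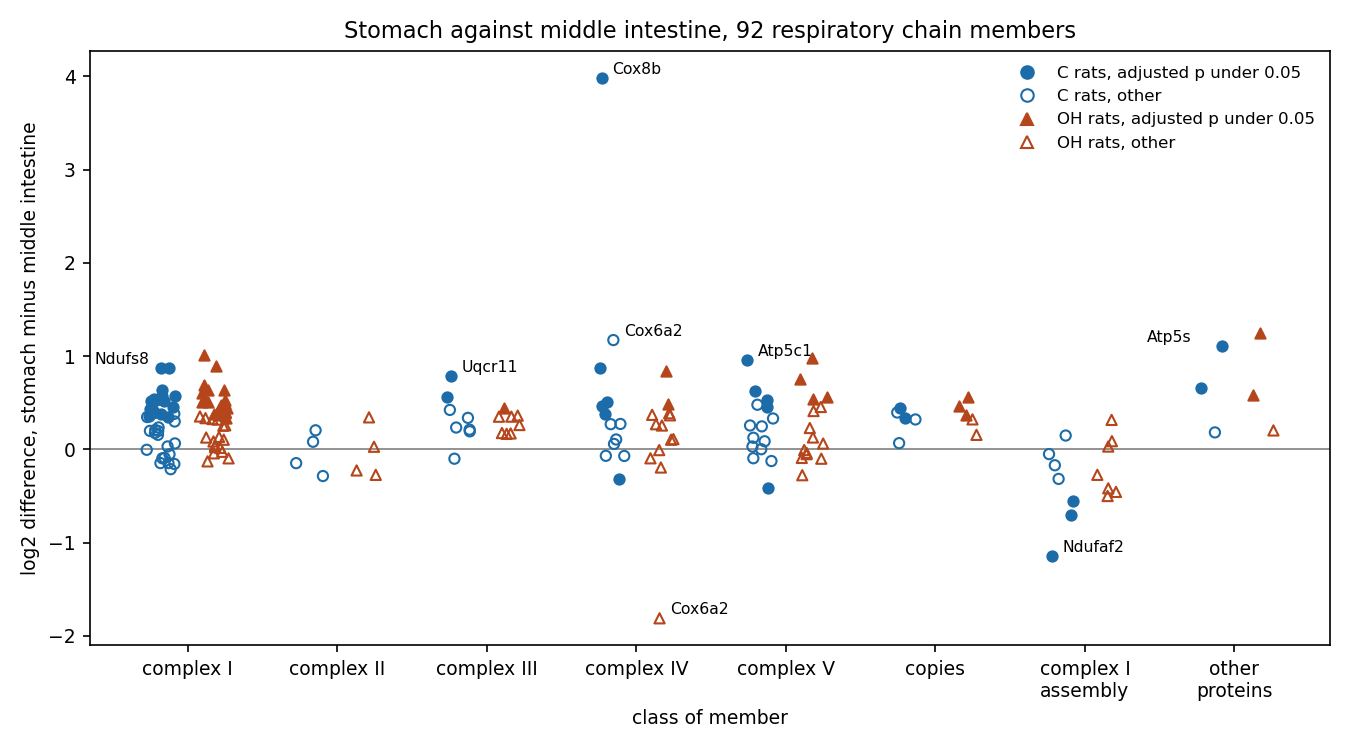
Log2 difference between stomach and middle intestine (y axis) of each of the 92 genes, by class (x axis), with circles for C rats, triangles for OH rats and filled symbols for an adjusted limma p under 0.05. Most complex I symbols lie above 0, no complex II symbol is filled, the filled assembly factor circles lie below 0, and Cox8b lies at 3.98 in C rats.

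Complex I, which oxidises NADH, had 17 of 37 subunits higher in stomach in C rats (45.9%) and 19 of 37 in OH rats (51.4%), with 0 lower in either. The share of all probes higher was 22.7% and 19.2%, and the share lower 22.3% and 19.1%. Ndufa1, a small accessory subunit of the membrane arm, stood at a log2 ratio to the reference of 0.79, 1.13, 0.77 and 0.57 in C stomach and 0.46, 0.77, 1.03 and 0.63 in OH stomach. In middle intestine it stood at -0.14, -0.058, 0.073 and -0.12 in C rats and 0.11, -0.16, -0.29 and -0.35 in OH rats. Every stomach array was above every intestinal array in both treatments. The stomach was higher by 0.88 ± 0.15 (SE, 1.83-fold, adjusted p = 0.000244) in C rats and by 0.89 ± 0.15 (1.86-fold, adjusted p = 0.000239) in OH rats, and the exact two-sided permutation p was 0.029, the smallest that 4 against 4 arrays allow. Its probe lies on chromosome X, 7730036 to 7730095 of rn4, the build of the array design.

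Ndufs8, one of the core subunits that hold the iron-sulphur clusters, was read at 0.77, 1.17, 0.77 and 0.50 in C stomach and 0.52, 0.85, 1.21 and 0.83 in OH stomach, and at -0.21, -0.46, 0.60 and -0.19 in C and -0.091, 0.25, -0.63 and -0.18 in OH middle intestine. One C intestinal array (replicate 3, 0.60) lay within the range of the C stomach arrays, while the OH groups did not overlap. The difference was 0.87 ± 0.24 (adjusted p = 0.00824) in C rats and 1.02 ± 0.24 (adjusted p = 0.00356) in OH rats. Other core subunits had smaller differences. Ndufs1, the largest iron-sulphur subunit, was higher in stomach by 0.57 and 0.47 in C and OH rats, and Ndufv1, the NADH-binding flavoprotein, by 0.52 and 0.37, all 4 differences passing the test and none with overlapping arrays.

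Not every complex I subunit followed. Accessory subunits Ndufa3 (-0.21 and -0.13 in C and OH rats), Ndufb8 (-0.15 and -0.044), Ndufa7 (-0.15 and -0.027) and the core subunit Ndufs7 (-0.093 and -0.10) had negative differences that did not pass the test. Ndufa6, an accessory subunit of the LYR family, was nearly level between the organs (-0.0057 ± 0.12 and 0.023 ± 0.12). Ndufa4, named for complex I and now counted by biochemists with complex IV, was higher in stomach in OH rats (0.39, adjusted p = 0.0499) and was at 0.20 in C rats (adjusted p = 0.296). The OH call of Ndufa4 passed in 10 of 24 alternative fits. In median-centred Cy5 its OH difference was 0.16 (limma adjusted p = 0.43), and in Cy3 it was -0.24 (limma adjusted p = 0.0068).

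Complex II, succinate dehydrogenase, also belongs to the tricarboxylic acid cycle, and 0 of its 4 subunits passed the test in either treatment at 22.7% and 22.3% (C) and 19.2% and 19.1% (OH) of all probes called higher and lower. Sdha, the flavoprotein, was at 0.22, 0.28, 0.18 and 0.071 in C stomach and 0.085, 0.11, 0.21 and 0.024 in C middle intestine. The stomach and intestinal arrays overlapped, and the difference was 0.081 (95% interval -0.17 to 0.33) in C rats and 0.027 (-0.22 to 0.28) in OH rats. Sdhb, the iron-sulphur subunit, differed by -0.15 (-0.53 to 0.23) and -0.27 (-0.65 to 0.10). The membrane anchors lay on opposite sides of 0, Sdhc at 0.20 and 0.34 and Sdhd at -0.29 and -0.23 in C and OH rats. For Sdhd the adjusted p was 0.0728 in C rats, and its arrays read -0.22, 0.044, -0.28 and -0.38 in C stomach and 0.051, 0.22, 0.15 and -0.11 in C middle intestine. Differences between complexes were not tested.

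Complex III, which passes electrons from ubiquinol to cytochrome c, had 2 of 8 subunits higher in stomach in C rats (25%) and 1 of 8 in OH rats (12.5%), near or below the 22.7% and 19.2% of all probes. Uqcr11, its smallest subunit, was at 1.05, 0.76, 0.83 and 0.85 in C stomach and -0.036, 0.32, -0.063 and 0.12 in C middle intestine, and at 0.42, 0.61, 0.81 and 0.57 and 0.15, 0.016, 0.31 and 0.16 in the OH organs. The organs did not overlap in either treatment, and the difference was 0.79 ± 0.12 (adjusted p = 8.43e-05) in C rats and 0.44 ± 0.12 (adjusted p = 0.00785) in OH rats. Another 2 probes of Uqcr11 gave 0.29 and 0.40 in C rats, the second passing the test (adjusted p = 0.0215), and neither passed in OH rats. Uqcrc1, a core subunit on the matrix side, was higher by 0.56 in C rats (adjusted p = 0.00721) and was at 0.35 in OH rats (adjusted p = 0.0792). The Rieske iron-sulphur protein Uqcrfs1 (0.42 and 0.35) and the core subunit Uqcrc2 (0.21 and 0.16) had positive differences that did not pass.

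Complex IV, cytochrome c oxidase, had 5 of 13 subunits higher in stomach in C rats (38.5%, against 22.7% of all probes), the muscle isoform Cox8b among them, and 1 lower. In OH rats 2 of 13 were higher (15.4%, below the 19.2% of all probes). Without C stomach replicate 2, the complex IV subunits higher in C rats were Cox7b and the muscle isoforms Cox8b and Cox6a2. Cox7b, a small membrane subunit, was at 0.65, 1.08, 0.57 and 0.30 in C stomach and 0.27, 0.62, 0.98 and 0.47 in OH stomach, against -0.24, -0.42, 0.19 and -0.43 and -0.13, 0.10, -0.56 and -0.45 in the C and OH middle intestine. The organs did not overlap, with a difference of 0.88 ± 0.21 (adjusted p = 0.00331) and 0.84 ± 0.21 (adjusted p = 0.00479). Cox6c was the other subunit that passed in both treatments (0.38 and 0.49). Cox4i1 and Cox5a, which sit beside the catalytic core, were nearly level, at -0.07 and -0.10 and 0.057 and 0.10 in C and OH rats, the 95% interval for Cox4i1 being -0.30 to 0.16 in C rats.

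Subunits with isoforms did not all behave alike. Among the ubiquitous forms, Cox8a was higher in stomach in C rats (0.47, adjusted p = 0.0179) and at 0.36 in OH rats (adjusted p = 0.0641), while Cox6a1 (0.27 and 0.37) and Cox7a2 (0.27 and 0.25) did not pass. For Cox7a2 this held for the brightest probe only. Its other probe gave 0.497 in C rats and 0.535 in OH rats and passed the limma test in both. Cox4i2, the isoform known from lung and low oxygen, was at 0.11 and 0.27. Cox6b2, a form known from testis, was the complex IV subunit lower in stomach in C rats, with arrays at -0.10, -0.00082, -0.24 and -0.23 in stomach and 0.037, 0.37, 0.053 and 0.27 in middle intestine and a difference of -0.32 ± 0.12 (adjusted p = 0.0374). It was at -0.20 in OH rats (adjusted p = 0.209). Cox6b1 and Cox7a1 were found only under locus names for similar genes, chosen by their description after the files were read. Of the COX6B1-like genes, LOC681754 was higher in stomach by 0.55 in C rats (adjusted p = 0.0147) and was at 0.40 in OH rats (adjusted p = 0.0719), and LOC688869 was higher in stomach by 0.90 and 0.72 (adjusted p = 0.000855 and 0.00483). The COX7A1-like LOC687508, which resembles the muscle form, was lower in stomach by -1.36 and -1.94 (adjusted p = 0.00233 and 0.000163), and its arrays did not overlap between the organs.

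Complex V had 4 of 15 subunits higher in stomach in both C and OH rats (26.7%, near the 22.7% and 19.2% of all probes), and 1 lower in C rats. Atp5c1, the gamma subunit of the rotating stalk, was at 0.43, 0.72, 0.42 and 0.30 in C stomach and -0.58, -0.81, 0.02 and -0.59 in C middle intestine, and at 0.33, 0.45, 0.75 and 0.51 and -0.44, 0.026, -1.05 and -0.41 in the OH organs. No stomach array overlapped the intestinal range, and the difference was 0.96 ± 0.21 (1.94-fold, adjusted p = 0.00212) and 0.98 ± 0.21 (1.97-fold, adjusted p = 0.00209). The catalytic beta subunit Atp5b was higher by 0.62 and 0.75, and the alpha subunit Atp5a1 by 0.53 in OH rats, with 0.48 in C rats (adjusted p = 0.059). The OH call of Atp5a1 passed in 13 of 24 alternative fits. With each dye centred on its array median, Atp5a1 differed in OH rats by 0.16 in Cy5 (limma adjusted p = 0.41). In Cy3, the reference, it differed by -0.38 (limma adjusted p = 0.0093). The 3 genes that encode the same c-ring protein ran from level to positive, Atp5g1 at -0.10 and -0.10, Atp5g2 at 0.00038 and -0.039 and Atp5g3 at 0.33 and 0.45, and 0 of them passed. Atp5i, subunit e of the membrane part, was lower in C rats (-0.42, adjusted p = 0.0401).

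**Figure D2:**
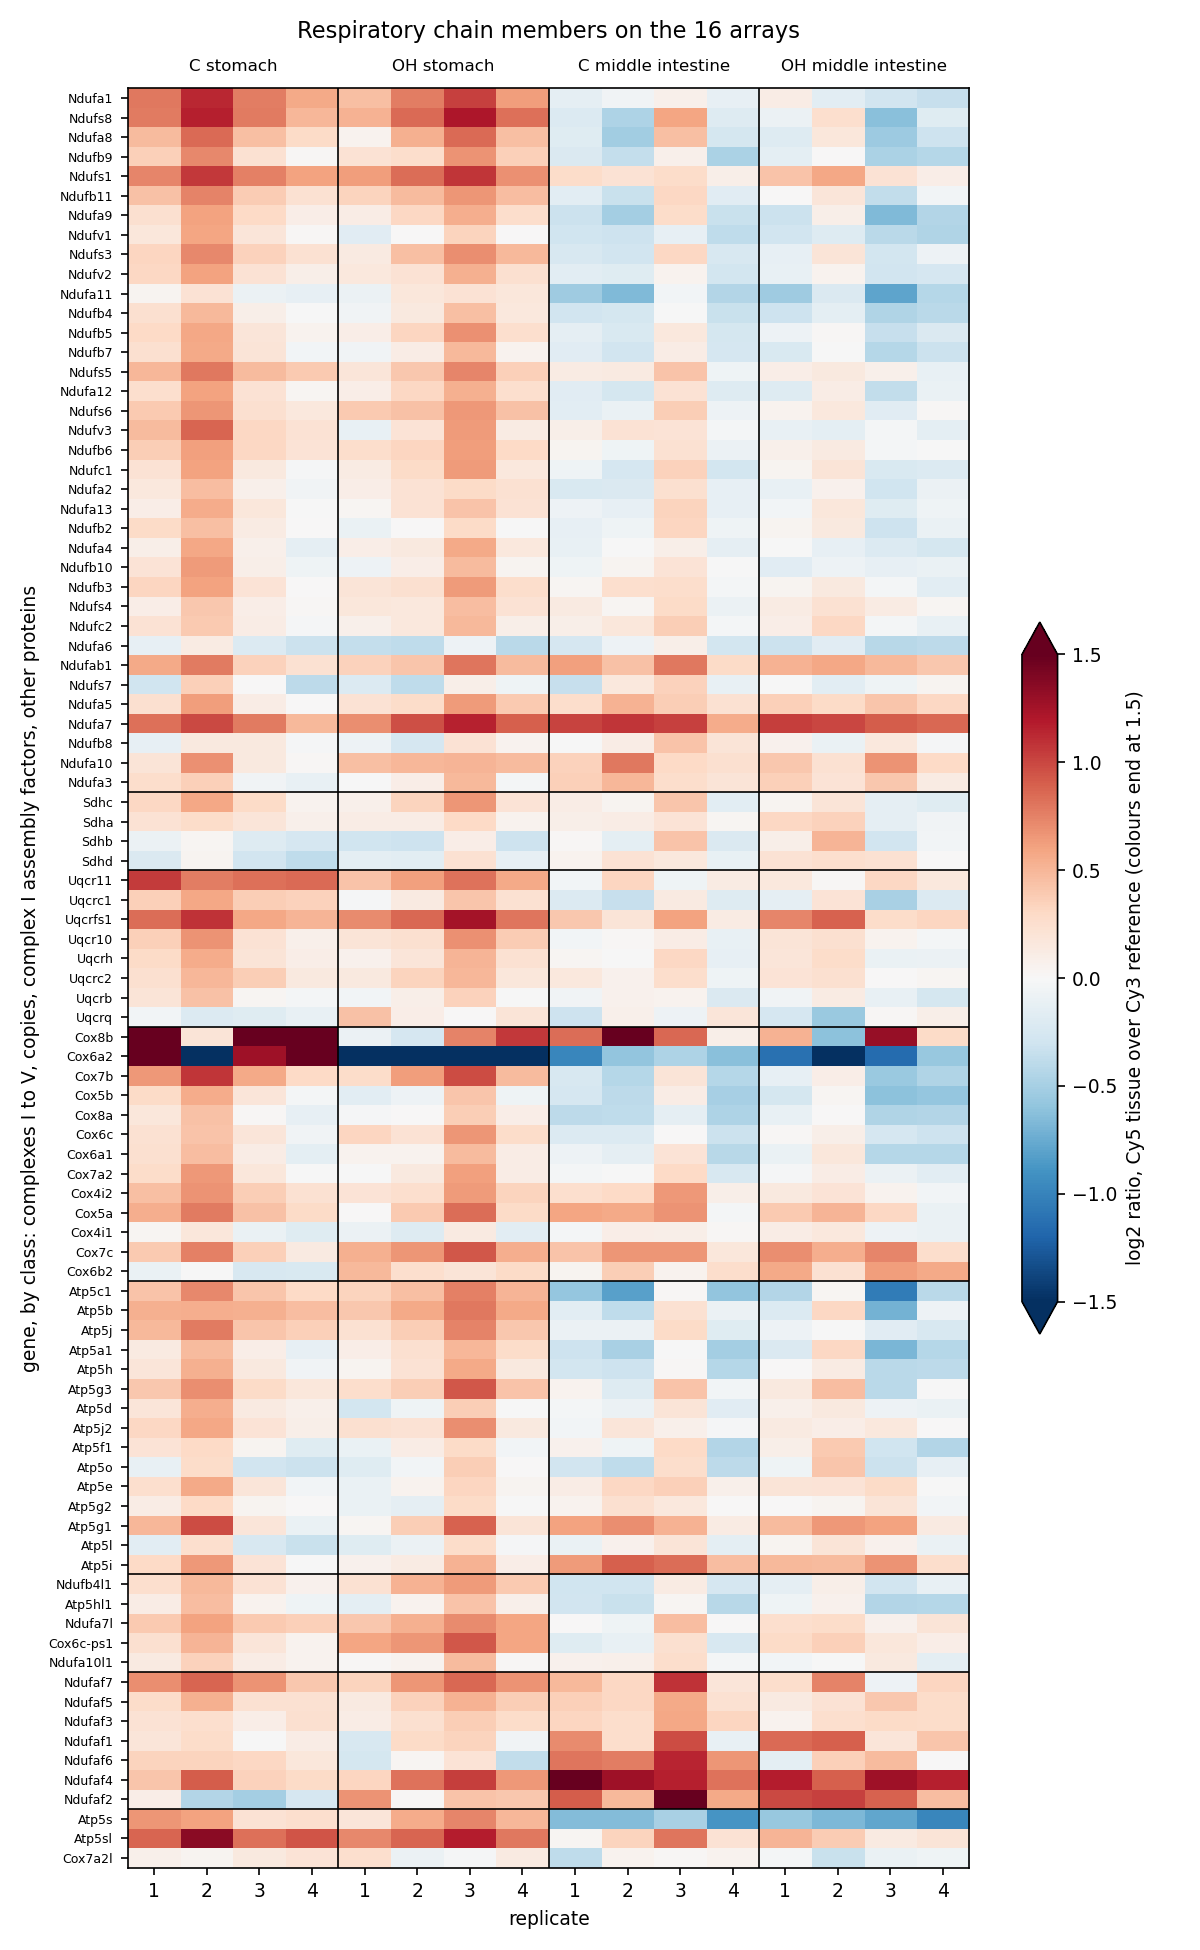
Log2 ratio of tissue (Cy5) to reference (Cy3) of all but 1 of the 92 genes (rows, by class) on the 16 arrays (columns, by group and replicate), as colours that end at 1.5 on either side of 0. The stomach columns are the redder ones for most rows of complex I, and Cox8b is at the end of the colours on C stomach arrays 1, 3 and 4.

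The genes that match by name but encode no subunit are given apart. Atp5s, a mitochondrial coupling factor, had the largest difference in favour of stomach among genes with non-overlapping arrays in both treatments, at 0.66, 0.60, 0.22 and 0.26 in C stomach and -0.65, -0.65, -0.48 and -0.88 in C middle intestine. It was higher in stomach 2.15-fold (adjusted p = 3.26e-05) in C rats and by 1.24 ± 0.15 (2.37-fold, adjusted p = 1.13e-05) in OH rats. The related Atp5sl was higher by 0.65 and 0.59, whereas Cox7a2l, a factor of respiratory supercomplexes, was at 0.18 and 0.20 and did not pass. Among the copies, 2 of 5 passed in C rats and 3 of 5 in OH rats, Ndufb4l1 (0.44 and 0.56) and Ndufa7l (0.34 and 0.37) in both and Cox6c-ps1 in OH rats. The share of all probes higher in stomach was 22.7% in C rats and 19.2% in OH rats. Without C stomach replicate 2, neither Ndufb4l1 nor Ndufa7l passed in C rats. The calls of the copies are those of the brightest probes. The other probe of Cox6c-ps1 gave 0.13 in C rats and 0.386 in OH rats and passed in neither. That of Ndufa10l1 gave 0.601 and 0.741 and passed in both. The brightest probes of the copies share runs of 4 to 9 of 60 bases with the probe of their partner.

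The complex I assembly factors, which help build the complex and are not part of it, had negative differences for 6 of 7 in C rats and 4 of 7 in OH rats. Of the 7, 3 were lower in stomach in C rats (42.9%, where 22.3% of all probes were), and 0 passed in OH rats. Ndufaf2, a late assembly chaperone, was at 0.10, -0.43, -0.52 and -0.26 in C stomach and 0.91, 0.49, 1.51 and 0.57 in C middle intestine, so that the groups did not overlap. Its difference was -1.15 ± 0.22 (0.452-fold, adjusted p = 0.00079) in C rats and -0.46 ± 0.22 (adjusted p = 0.12) in OH rats. Ndufaf6 was at -0.55 in C rats (adjusted p = 0.012) and -0.27 in OH rats, and Ndufaf4 at -0.70 (adjusted p = 0.00637) and -0.42. For none of these 3 did the difference between treatments pass the test (adjusted p = 0.836 for Ndufaf2). Another 3 probes of Ndufaf4 were negative in both treatments and did not pass.

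Probe choice mattered for single genes. For 19 genes there were several probes, 23 other probes were kept, and 21 of these in C rats and 22 in OH rats had the sign of the brightest one. The calls differed for 13 and 11 of the 23, with 0 calls in opposite directions. The second probe of Ndufs4 gave 0.76 and 1.05 where the brightest gave 0.063 and 0.13, and the second probe of Uqcrb 0.82 and 0.99 where the brightest gave 0.19 and 0.17. Of the 92 probes, 83 were among the brightest 5294 of the 21174 probes. Among these, 34.9% of the members were higher in stomach in both treatments, against 21.5% of all probes in C rats and 17.7% in OH rats.

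The 12 probes described as transcripts of the mitochondrial genome, picked by description after the files were read, were set beside the nuclear subunits. All 12 had positive differences in both treatments, with medians of 0.66 in C rats and 0.53 in OH rats. The test was passed by 1 in C rats (8.33%), ND2 of complex I (1.01, adjusted p = 0.0262) and by 0 in OH rats. Of all probes, 22.7% were higher in stomach in C rats and 19.2% in OH rats. The arrays of C middle intestine spread widely for these transcripts, with a mean over the 12 of -0.984 ± 0.91 (SD, n = 4) against -0.319 ± 0.084 in C stomach.

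Other genes of mitochondrial metabolism were taken from lists of textbook members. Of 17 tricarboxylic acid cycle genes, 10 were higher in stomach (58.8%) and 2 lower (11.8%) in C rats. In OH rats 9 were higher (52.9%) and 2 lower (11.8%). Of all probes, 22.7% were higher and 22.3% lower in C rats, and 19.2% and 19.1% in OH rats. Pdhb, of the pyruvate dehydrogenase complex, was higher by 0.72 and 0.76, while Cs, citrate synthase, was lower by -0.79 and -1.08 and Dlst by -0.67 and -0.66. Of 23 electron carriers and assembly partners, 5 were higher (21.7%) and 1 lower (4.35%) in C rats. In OH rats 3 were higher (13%) and 1 lower (4.35%), so that these shares lay below those of all probes. Among them were Cox17, a copper chaperone of complex IV (0.88 and 1.02), Coq9, of ubiquinone synthesis (0.74 and 0.69) and Cox11, another copper chaperone (-0.58 and -0.50). Slc25a4 and Slc25a5, the ADP/ATP carriers, were the 2 of 14 membrane genes that were higher (1.38 and 1.56, and 0.82 and 0.98). These 2 are 14.3%, below the share of all probes in both treatments. In C rats 3 were lower (21.4%) and in OH rats 1 (7.14%), Tomm22 of the import pore in both (-0.71 and -0.62).

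Of 17 regulators of mitochondrial biogenesis, 3 were higher (17.6%) and 7 lower (41.2%, against 22.3% of all probes) in C rats, and 3 higher (17.6%) and 4 lower (23.5%, against 19.1% of all probes) in OH rats. Esrrg, an orphan receptor that is also on the parietal cell list, was higher by 4.51 and 4.72, and Ppargc1b, a coactivator, by 0.95 and 0.82. Nrf1 (-0.78 and -0.52), Tfam, the packaging factor of mitochondrial DNA (-0.60 and -0.64), Esrra (-0.41 and -0.57) and Gabpb1 (-0.32 and -0.31) were lower in both treatments. Ppargc1a was at 0.28 and 0.037 and did not pass. Of the 3 uncoupling proteins, Ucp3 (6.52 and 4.97) and Ucp1 (3.18 and 3.61) were higher in stomach in both treatments and Ucp2 in C rats (0.84). Ucp1 is also on the adipocyte list, of which 5 of 5 genes were higher in stomach in C rats and 4 of 5 in OH rats. Of all probes, 22.7% and 19.2% were higher.

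Within a group, the subunits rose and fell together from rat to rat. The mean log2 ratio of 75 subunits, without Cox8c and the muscle isoforms Cox6a2 and Cox8b, was 0.288, 0.57, 0.215 and 0.0735 in C stomach and 0.121, 0.24, 0.558 and 0.234 in OH stomach. It was -0.0162, -0.00356, 0.262 and -0.116 in C middle intestine and 0.0551, 0.173, -0.111 and -0.103 in OH middle intestine. The stomach groups had means of 0.287 ± 0.21 and 0.288 ± 0.19 (SD, n = 4) and the intestinal groups of 0.0316 ± 0.16 and 0.00368 ± 0.14, so that the lowest stomach arrays lay below the highest intestinal ones in both treatments. Over the 16 arrays, with group means removed, the mean pairwise correlation of the 75 subunits was 0.67, against 0.016 over all probes and 0.44 over the 7 assembly factors. The correlation of a subunit with the mean of the others was over 0.5 for 70 of 75. Uqcrq (-0.61), Cox6b2 (-0.32) and Uqcr11 (-0.074) were the 3 below 0. Arrays share a slide and a dye within a group, no set of equally bright probes was compared, and the correlation is a description.

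**Figure D3:**
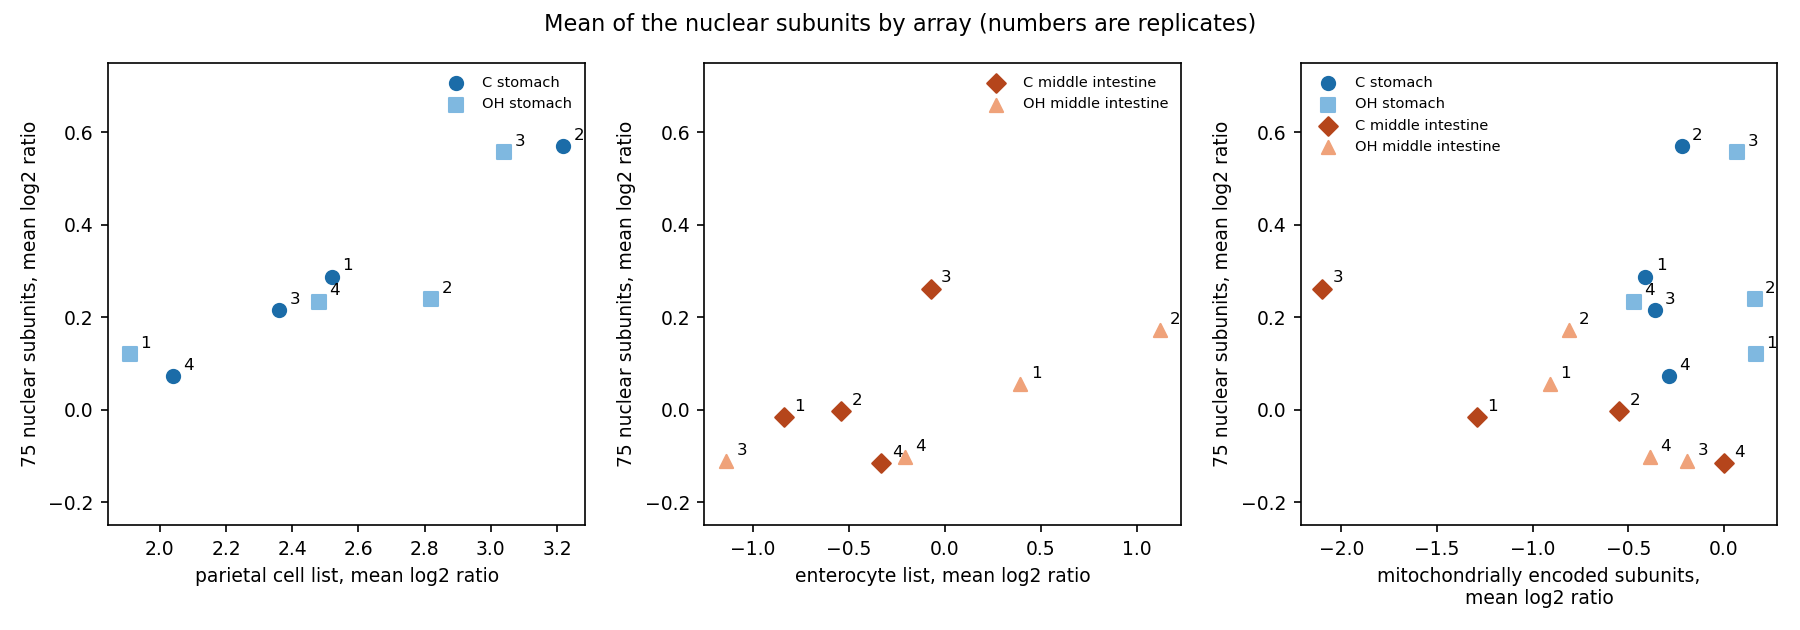
Mean log2 ratio of 75 nuclear subunits (y axes) against the mean log2 ratio of the parietal cell genes in stomach, of the enterocyte genes in middle intestine and of the 12 mitochondrially encoded subunits in all groups (x axes), each symbol being 1 array with its replicate number. The stomach symbols rise from lower left to upper right within each treatment, and C middle intestine replicate 3 lies at -2.10 on the mitochondrial axis with a nuclear mean of 0.262.

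Cell marker lists had the array order of this mean, or its reverse, in some groups. The 9 parietal cell genes had means of 2.52, 3.22, 2.36 and 2.04 in C stomach and 1.91, 2.82, 3.04 and 2.48 in OH stomach, and the order of the arrays was that of the subunit mean in both groups. They lay between -2.70 and -2.10 in middle intestine. This order was not particular to the parietal cell genes. The 17 tricarboxylic acid cycle genes had it in both stomach groups. The 5 chief cell genes had it in C stomach (2.33, 3.79, 1.97 and 1.83) but not in OH stomach (1.65, 3.69, 3.02 and 3.36). The 5 gastric mucous cell genes had it in neither (4.00, 3.06, 3.83 and 3.75 in C stomach). The 12 enterocyte genes had means of 0.394, 1.12, -1.14 and -0.21 in OH middle intestine, again in the order of the subunit mean, and -0.839, -0.54, -0.0743 and -0.331 in C middle intestine, where replicate 3 was highest in both but the other arrays came in another order. The 9 smooth muscle genes ran in the reverse order of the subunit mean in both OH groups. Their means were 0.967, -1.4, -2.66 and 0.13 in OH stomach and -0.597, -0.847, -0.115 and -0.203 in OH middle intestine. In C stomach they were at -2.26, -2.67, -1.44 and -2.04, and in C middle intestine at -0.26, -0.488, -1.23 and -0.375. There the array highest in the subunit mean was lowest in theirs. The part of these cell types in the subunit differences was not tested. The 12 mitochondrially encoded transcripts did not follow, since their deviations correlated at -0.46 with those of the nuclear mean, and C middle intestine replicate 3, highest of its group in the nuclear mean, was lowest in theirs (-1.29, -0.549, -2.1 and -0.00026).

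Some tissue counts rested on single arrays. In C rats the number of genes higher in stomach was 18 without C stomach replicate 2, where the members' share was no longer above that of all probes, and 20 or 21 without C middle intestine replicate 1, 2 or 4 (21.7% to 22.8% of members against 19.5% to 20.8% of all probes). In OH rats it was 20 without OH stomach replicate 3 or without OH middle intestine replicate 3 (21.7% of members against 17.4% and 17.1% of all probes). In every fit that left out 1 array, 17 genes were higher in C rats and 19 in OH rats, Ndufa1, Ndufs1, Ndufs8, Cox7b, Uqcr11, Atp5b, Atp5c1, Atp5j and Atp5s among them in both. The share of all probes higher in every such fit was not counted, so these counts cannot be set against it.

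Cox8b and Cox6a2, the muscle isoforms of complex IV among the members, stood apart from all other members. The COX7A1-like LOC687508, which is not a member, did not go with them. It lay between -2.85 and -2.02 in C stomach and between -2.95 and -2.53 in OH stomach. Its difference between OH and C stomach was -0.30 (limma adjusted p = 0.756). Cox8b, which replaces Cox8a in heart and skeletal muscle, was at 6.49, 0.20, 5.88 and 6.95 in C stomach, -0.087, -0.26, 0.74 and 1.06 in OH stomach, 0.84, 1.78, 0.86 and 0.092 in C middle intestine and 0.52, -0.62, 1.31 and 0.28 in OH middle intestine. C stomach replicates 1, 3 and 4 were far above all others, and C stomach replicate 2 lay within the range of the other groups. Cox6a2, the muscle form of Cox6a1, was at 2.05, -3.86, 1.27 and 2.56 in C stomach and -1.53, -3.75, -3.53 and -2.81 in OH stomach, with the same 3 arrays high, and between -1.53 and -0.46 in middle intestine. The mean of 17 striated muscle genes, such as myosins and troponins, was 3.65, -0.866, 3.26 and 4.07 in C stomach and 0.755, -0.294, -0.312 and 0.838 in OH stomach, and -0.75 to -0.50 in middle intestine. Of these 17 genes, 14 were higher in stomach in C rats (82.4%) and 3 in OH rats (17.6%), against 22.7% and 19.2% of all probes.

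**Figure D4:**
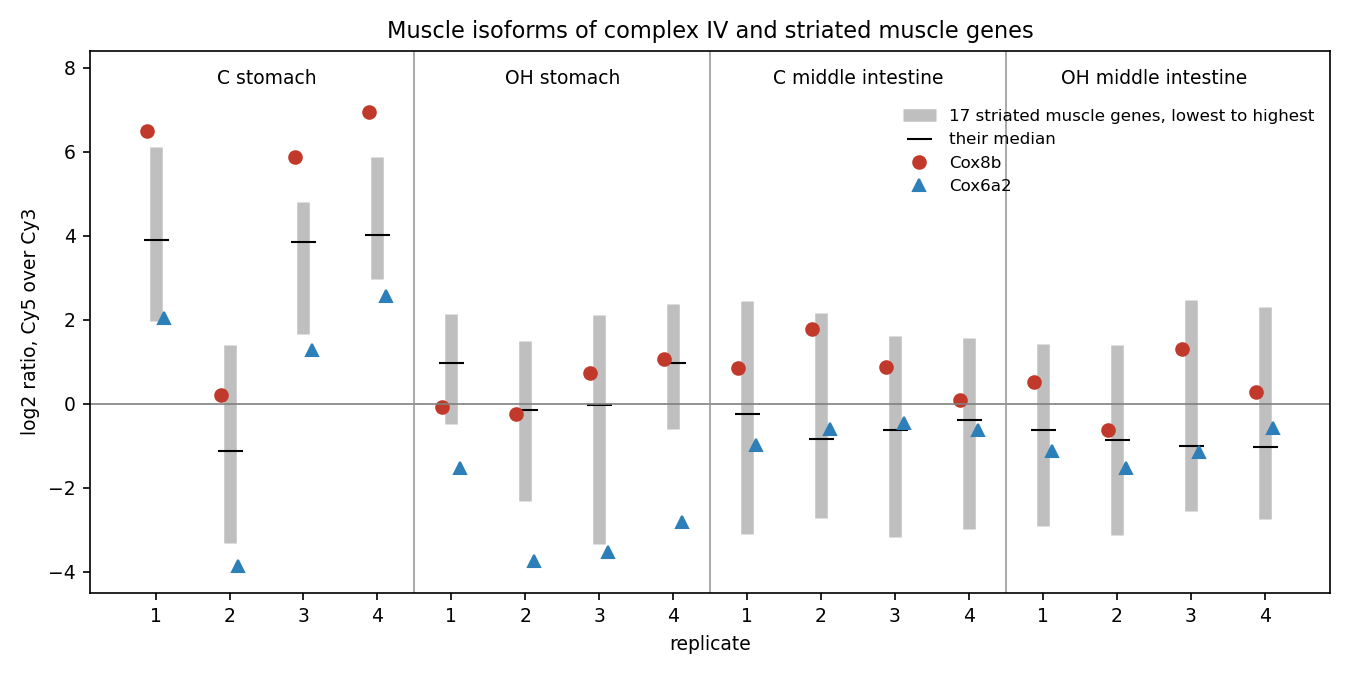
Log2 ratio (y axis) of Cox8b (circles) and Cox6a2 (triangles) on each array (x axis, replicates by group), with a grey bar from the lowest to the highest of 17 striated muscle genes and a line at their median. On C stomach replicates 1, 3 and 4 the striated median lies at 3.84 to 4.01 and Cox8b above the bar, and on C stomach replicate 2 the median lies at -1.13.

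Cox8b was higher in C stomach than in C middle intestine by 3.98 ± 1.09 (adjusted p = 0.00851), or 5.54 without C stomach replicate 2 (adjusted p = 7.26e-07), and was at -0.009 ± 1.09 in OH rats. Between OH and C stomach it was at -4.51 ± 1.09 (adjusted p = 0.229), and without C stomach replicate 2 at -6.07 (adjusted p = 1.18e-05). For Cox6a2 the values were -3.41 ± 1.02 (adjusted p = 0.308) with all arrays and -4.87 (adjusted p = 5.46e-05) without that one. These were the 2 genes of the 92 called without the array, where 1.28% of all probes were lower in OH stomach. The 3 C stomach arrays with high striated muscle genes are the ones high in both isoforms, and the part of striated muscle tissue in these differences was not tested. Cox8b was well above background on 1 of 4 OH middle intestine arrays and on all 4 arrays of each other group.

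The study's question was the effect of obestatin, and 0 of the 92 genes passed the limma test in either organ. By the Tukey test that the methods name, 3 passed in stomach and 2 in middle intestine, where 3.35% and 4.42% of all probes did. By limma in stomach, 0 of all 21174 probes passed (0%), and 7 of the 92 members had an unadjusted p under 0.05 where 10.6% of all probes did. In middle intestine, 78 of all probes passed (0.368%), none of them a member, and 3 of the 92 had an unadjusted p under 0.05 where 10.5% of all probes did. The difference of the effect between organs was passed by 0 members and by 0 of all probes (0%), with 3 members at an unadjusted p under 0.05 where 5.85% of all probes were. The median difference of the 92 genes was 0.0048 in stomach and -0.036 in middle intestine. Leaving out Cox6a2 and Cox8b, the 95% interval of the difference lay within 1 log2 unit of 0 for 89 of 90 genes in each organ, with a median half-width of 0.31.

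The members with the smallest p were the muscle isoforms, Cox6b2, Cox6c-ps1 and Ndufaf2 in stomach, and Ndufaf6, Cox6b2, Cox6c-ps1, Cox4i2 and Ndufa6 in middle intestine. Ndufaf6 was at 0.80, 0.76, 1.14 and 0.67 in C and -0.15, 0.36, 0.48 and 0.0042 in OH middle intestine, without overlap, a difference of -0.67 ± 0.16 (adjusted p = 0.0992). In stomach it was at -0.39 (adjusted p = 0.435). Cox6b2 was at -0.10, -0.00082, -0.24 and -0.23 in C stomach and 0.48, 0.25, 0.19 and 0.29 in OH stomach, again without overlap, with 0.44 ± 0.12 (adjusted p = 0.263) in stomach and 0.32 ± 0.12 (adjusted p = 0.323) in middle intestine. Cox6c-ps1 was at 0.45 and 0.30 in the 2 organs, and Ndufaf2 at 0.66 in stomach. Arrays of OH and C did not overlap for 3 genes in stomach (Uqcrq, Cox6b2 and Cox6c-ps1), all higher in OH, where 4.09% of all probes were, and for 3 in middle intestine (Ndufb10, Ndufv3 and Ndufaf6), all lower in OH, where 2.13% of all probes were. Among the subunits of complex II, the differences in stomach ran from -0.079 (Sdhb) to 0.16 (Sdhd) and in middle intestine from -0.13 (Sdhc) to 0.10 (Sdhd).

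Because the reference was brighter on the OH slides, both dyes were also read apart, each centred on its array median. For OH against C, 0 members passed in Cy5, the dye of the rats' own RNA, in either organ. In Cy3, the dye of the common reference, 6 members were higher and 33 lower in stomach and 11 higher and 23 lower in middle intestine, where 41.0% and 58.6% of all probes passed in either direction. The Cy3 change was the larger one for 41 of 92 members in each organ. Cox6b2 moved by -0.028 in Cy5 and -0.47 in Cy3 in stomach, and Cox6c-ps1 by -0.017 and -0.46. For Ndufaf6 in middle intestine the change was -0.35 in Cy5 and 0.35 in Cy3. Cox8b in stomach moved by -5.59 in Cy5 (adjusted p = 0.059) and -1.07 in Cy3. In the tissue comparisons the channels lay otherwise, with 21 members higher and 3 lower in Cy5 and 2 higher and 8 lower in Cy3 in C rats, and 17 and 2 against 0 and 10 in OH rats. In Cy5 this is 22.8% of members higher in C rats and 18.5% in OH rats, against 19.7% and 18.5% of all probes. The shares called higher therefore lay close together. The shares called lower did not, since 23.8% and 20.5% of all probes were lower in Cy5, against the 3 and 2 members. The median Cy5 difference of the members was 0.21 and 0.18 in C and OH rats, against -0.064 and -0.017 over all probes. With Cy5 quantile-normalised instead, 31.5% and 32.6% of members were higher, against 20.8% and 19.3% of all probes. In Cy3, 13.8% of all probes were higher and 18.4% lower in C rats, and 3.9% and 7.53% in OH rats. Some members called higher in stomach by the ratio passed in Cy3, where they were lower, and not in median-centred Cy5. Uqcrc1 and Cox8a in C rats and Atp5a1, Ndufa4, Cox6c and Cox6c-ps1 in OH rats were among them.

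**Figure D5:**
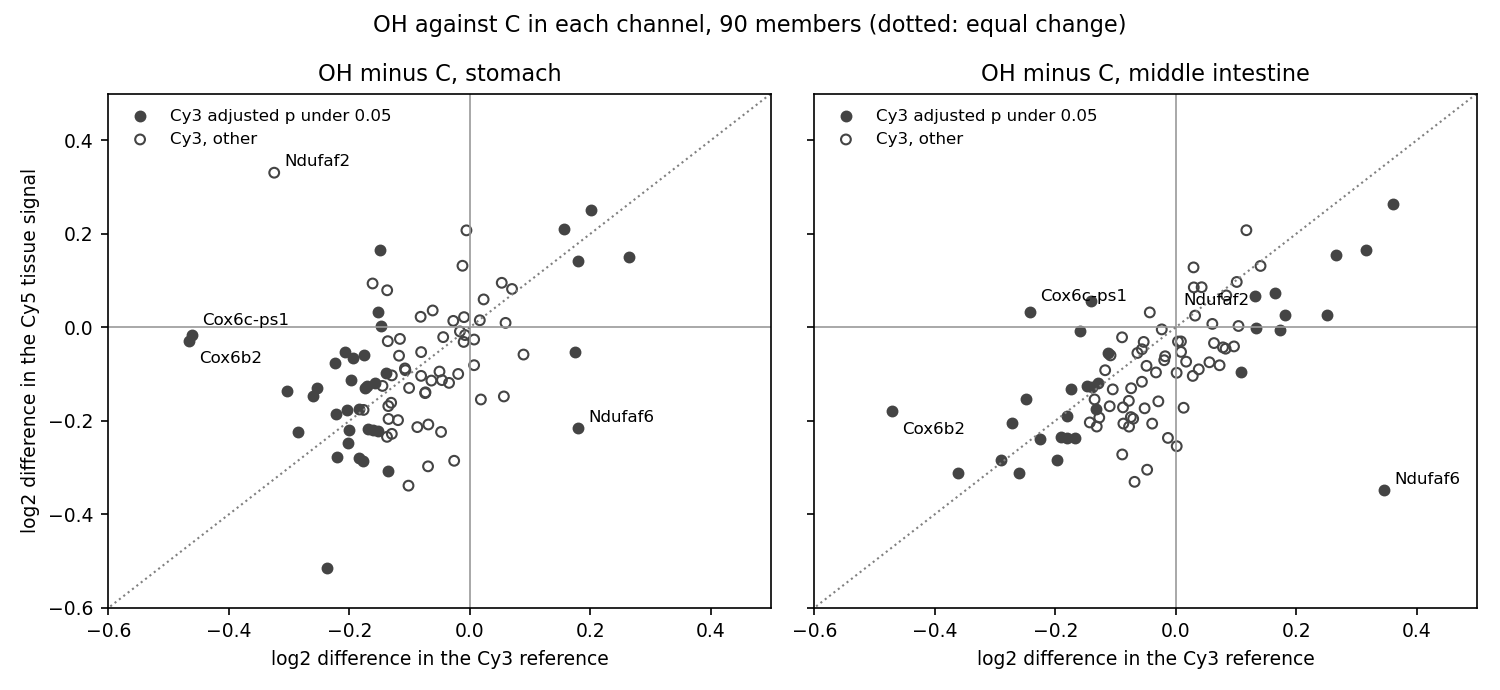
Log2 change from C to OH in the Cy5 tissue signal (y axis) against that in the Cy3 reference (x axis), each array centred on its median, for 90 members (without Cox8b and Cox6a2) in stomach and in middle intestine, filled where the Cy3 change had an adjusted p under 0.05, with a dotted line of equal change. Cox6b2 and Cox6c-ps1 lie near 0 in Cy5 and at -0.47 and -0.46 in Cy3 in stomach.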

How the data were processed

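Total RNA was hybridised on 16 Agilent rat gene expression arrays in 2 colours. Per the file headers the deposited intensities (processed signals, background-subtracted and Lowess dye-normalised by the authors) came from Feature Extraction 10.10.1.1, and the study's notes name 10.7.3.1. The deposited log10 ratio per spot, of processed Cy5 over Cy3, matched the ratio given by Feature Extraction within 0.005. Fitted in place of the ratio computed here, it gave 4800 against 4796 probes higher in stomach in C rats. The deposited outlier flags and background flags (other values) were used to drop outlier spots and dim probes.

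From these intensities log2(Cy5/Cy3) was computed, spots of a probe were averaged, and the filter retained 21174 of 30367 probes. A retained probe exceeded background in Cy5 on each of the 4 arrays of some group, with a minimum of 3 values per group. In R 4.3.3, limma 3.58.1 fitted 4 group means, and p-values were adjusted by Benjamini-Hochberg over all kept probes (threshold 0.05). Single genes were also tested with exact two-sided permutations of 4 against 4 arrays. The code was tested on simulated data. Members and gene lists were chosen with earlier results of these data known. Genes were named as the isoforms with their partners, the core subunits, all Sdh genes, the 5 members with the largest called differences in each direction whose arrays did not overlap, and the 5 with the smallest p in each OH against C comparison. A member and a gene of another list are counted but not reported by name here. The labels name no culture, litter or rat shared between arrays, and with 4 arrays a group the number of arrays limits the precision. Alternatives covered the background correction, scaling, channel, filter on dim probes, probe choice, array weights, replicate block, the study's own test and leaving out each array.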

Additional observations from a re-analysis of the deposited data

Results flagged for a closer look

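Among 188 groups of 4 arrays examined, 16 held an array far from the other 3, and chance gives about 1 in 20 groups. OH stomach replicate 3 was the high array for Ndufa6 (-0.08, the others -0.4 to -0.362), Cox6a1 (0.475), Ndufa4 (0.566), Sdhb (0.104), Sdhd (0.234), and the means of complex II (0.324) and of complex IV without Cox6a2 and Cox8b (0.566). C stomach replicate 2 was low for Cox8b (0.199, the others 5.88 to 6.95) and high for Uqcrc1 (0.575). C stomach replicate 4 was low for Ndufaf6 (0.168). In C middle intestine, replicate 1 was low for Cox7a2l (-0.383), replicate 4 low for Cox5a (-0.024), and replicate 3 high for the mean of the copies of subunit genes (0.225). In OH middle intestine, replicate 2 was low for Cox6b2 (0.231) and replicate 4 low for Sdhd (0.00517). OH stomach replicate 4 was low for the mean of the subunits encoded in the mitochondrial genome (-0.469, the others 0.0703 to 0.166).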

How the results depend on the processing

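Over the alternatives other than leaving out an array, the number of members higher in stomach ran from 22 to 39 in C rats (32 as reported) and from 22 to 36 in OH rats (31 as reported). Members lower in stomach in C rats (5 as reported) numbered 2 in Cy5 alone (quantile-normalised, where the median-centred Cy5 of the text gave 3, and 2 in OH rats) and 3 with no filter on dim probes or with only the arrays compared. In OH rats (0 as reported) they numbered 2 with normexp and loess, 3 with quantile normalization, and 1 with median centring, Cy5 alone, no filter or only the arrays compared. For OH against C (0 as reported), 1 member passed in stomach and 2 in middle intestine with no filter, 4 in stomach with array weights, and 3 in stomach and 2 in middle intestine with the methods' ANOVA and Tukey's test. Cox6b2 in OH against C middle intestine turned to -0.151 (adjusted p = 0.778) in quantile-normalised Cy5. The members' median for OH against C, near 0 in both organs, also took either sign. The causes were not tested.

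Leaving out 1 array gave 18 to 39 members higher and 3 to 6 lower in C rats, 20 to 36 higher and 0 to 1 lower in OH rats, 0 to 2 for OH against C in stomach, 0 in middle intestine and 0 to 2 for the difference of the effect. The C count of lower members was 3 without C stomach replicate 1, 3 or 4 or C middle intestine replicate 2, and the OH count was 1 without OH stomach replicate 3 or OH middle intestine replicate 3. Both counts of 2 came without C stomach replicate 2 (Cox6a2 and Cox8b).

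Groups share replicate numbers, and by the methods both organs of a group may come from the same 4 rats, but the labels tie no number to a rat. Between the organs of a treatment, same-number correlations of deviations ran from 0.058 to 0.25 in C rats (3 of 4 over 0.1) and from -0.12 to 0.32 in OH rats (2 of 4 over 0.1), and 6 of 16 arrays matched their own number best, so the numbers were not taken as pairs, and whether they are was not settled. With the replicate block, 29 members were higher and 4 lower in C rats and 30 higher and 0 lower in OH rats, and with the block within each treatment 22 and 5, and 22 and 0. Slide, scan day and treatment could not be separated by any alternative.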
